A study of Mus musculus with 6 samples.

Results

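Matrix-binding integrins were measured here in cardiac mesenchymal cells, stromal cells grown from the mouse heart, as 10 genes chosen by symbol out of 53460 in the deposited table. The genes were Itga1, Itga11, Itga3, Itga7, Itga5, Itga8, Itgav, Itgb1, Itgb3 and Itgb5, each present once. The cells came from C57BL6/J mice that the labels call male, and the fraction that attaches late to plastic was used. Every sample title also carries P4, which may stand for a culture passage. There were 3 sham libraries, from mice that had a thoracotomy but no infarction, and 3 infarct libraries, from mice given 60 min of coronary occlusion and then reperfusion. Both groups were taken 28 days after surgery, and the age of the mice is not given in these sources. Nothing in the labels tells if replicate libraries were separate animals or cultures, so a p-value speaks only of the spread among these libraries, which may be technical. Where 3 values are given for a group, they are libraries 1, 2 and 3 in that order.

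An integrin is a pair of membrane proteins, an alpha and a beta subunit, that ties the extracellular matrix to the actin cytoskeleton and passes signals both ways. The alpha subunit largely sets which matrix protein is bound. The subunits of Itga1 and Itga11 pair with that of Itgb1 and bind collagen, and those of Itga3 and Itga7 pair with it and bind laminin. The subunits of Itga5, Itga8 and Itgav recognise the short peptide motif RGD in fibronectin, nephronectin, vitronectin and the latent form of TGF-beta. The subunit of Itgav can pair with that of Itgb1, Itgb3 or Itgb5. In cardiac fibroblasts these receptors are known for adhesion, contraction of collagen and activation of TGF-beta.

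The upstream sequences of 4 members are shown because Itgb1 was the most abundant and nearly constant member, while Itga3, Itga11 and Itga1 had the largest ranges of log2(FPKM + 1) over the libraries. They are RefSeq sequences of build GRCm38.p6 from the table of promoters, which held 8 of the 10 genes. Each is the part of the 250 bases before the first start listed that lies outside every exon of GENCODE M21. Itgb1 is at chr8:128685404-128685653 on the plus strand, Itga3 at chr11:95076802-95076964 on the minus strand, Itga1 at chr13:115101965-115102214 on the minus strand and Itga11 at chr9:62677605-62677825 on the plus strand. Capitals mark matches to any of 5 motifs, which were searched on both strands. The letters GGGCGG were taken as the GC box bound by Sp1 factors, and CATTCC as the motif of the TEAD factors. The core promoter elements were searched as TATAAA for the TATA box and as CCAAT for the box of that name. Binding sites of AP-1 factors were searched as TGANTCA, where N is any base. No matches in these stretches overlapped.
Itgb1: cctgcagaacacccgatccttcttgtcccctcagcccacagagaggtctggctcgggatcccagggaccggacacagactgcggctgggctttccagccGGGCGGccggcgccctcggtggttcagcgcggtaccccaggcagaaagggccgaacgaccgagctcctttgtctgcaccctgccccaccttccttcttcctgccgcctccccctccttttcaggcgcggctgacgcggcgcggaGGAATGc
Itga3: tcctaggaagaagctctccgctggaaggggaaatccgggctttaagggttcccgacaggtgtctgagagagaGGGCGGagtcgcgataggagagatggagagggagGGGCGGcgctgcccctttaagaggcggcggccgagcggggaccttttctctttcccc
Itga1: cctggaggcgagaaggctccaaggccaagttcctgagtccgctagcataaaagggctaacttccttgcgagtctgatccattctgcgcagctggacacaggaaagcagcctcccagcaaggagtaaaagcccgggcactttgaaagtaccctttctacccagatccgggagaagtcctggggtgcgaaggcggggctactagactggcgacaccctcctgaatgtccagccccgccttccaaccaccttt
Itga11: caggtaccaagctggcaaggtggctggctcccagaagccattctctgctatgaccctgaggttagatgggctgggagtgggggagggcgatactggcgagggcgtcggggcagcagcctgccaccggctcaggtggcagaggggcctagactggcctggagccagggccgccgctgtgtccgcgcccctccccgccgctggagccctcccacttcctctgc
In these stretches Itga3 held 2 GC boxes, and Itgb1 held 1 GC box and 1 TEAD motif. Itga1 and Itga11 held none of the 5 motifs. A second start of Itga3 is listed, and its 250 bases, at chr11:95069199-95069448 on the minus strand and not printed here, held 1 GC box and 1 CCAAT box. Among all 32851 RefSeq windows of 250 bases, 32.7% held a GC box, 12.6% a TEAD motif, 33.8% a CCAAT box, 12.4% a TATA box and 6.75% an AP-1 motif. Those windows were not cut at exons, unlike the stretches of Itga3 and Itga11. The whole 250 bases before the first start of Itga3 held 3 GC boxes. A match is a description of letters, and binding was not measured.

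Some facts of the series touch what follows. The table gives FPKM, fragments per transcript length and per library size, and the steps of its low values implied 22.4 to 31.0 M fragments per library. At that depth and with the longest transcript of each gene, Itga7 rested on 40 to 180 fragments per library, Itga8 on 179 to 610, Itga3 on 328 to 1856 and the other 7 members on at least 644. These estimates cover counting error only. The label of male mice was not matched. Xist, the RNA of the inactive X chromosome, was at 63.1 to 111 FPKM in all 6 libraries, while the Y-linked genes Ddx3y, Eif2s3y, Kdm5d and Uty were at most 0.225 FPKM for sham and 0.451 to 10.6 FPKM in infarct libraries, highest in infarct library 1. Sex and surgery cannot be told apart here. Stromal genes were abundant, with Col1a1, a fibrillar collagen gene, at 732 ± 120 FPKM for sham and 899 ± 146 for infarct, where each error is the SD of 3 libraries here and below. Col3a1, another fibrillar collagen gene, was at 868 ± 372 and 861 ± 280 FPKM. Of 9 tested fibroblast markers, 2 had groups that did not overlap, both lower in infarct libraries, where 7.81% of all tested genes did not overlap in either direction, and none passed the test. These were Thy1, a surface protein gene, at 289.8 ± 16.3 and 225 ± 35.3 FPKM (unadjusted limma p 0.0219), and Dcn, the decorin gene, at 26.7 ± 8.01 and 16.8 ± 2.64 (0.0339). Lum, the lumican gene, was low at 0.433 ± 0.139 and 0.232 ± 0.184 FPKM. Acta2, the gene of smooth muscle actin, was at 396 ± 73.9 and 455 ± 105 FPKM, and Pdgfrb, a mural and fibroblast receptor gene, at 43.5 ± 7.08 and 47.8 ± 7.92. Since these are bulk samples, fewer cells of a type and less RNA per cell cannot be told apart.

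The beta 1, alpha v and beta 5 genes dominated the integrin RNA of these cells. In GENCODE M21 on GRCm38, Itgb1 lies on the plus strand of chromosome 8 from 128685654 to 128733200, Itgav on the plus strand of chromosome 2 from 83724397 to 83806916 and Itgb5 on the plus strand of chromosome 16 from 33829665 to 33949338. Itgb1, which encodes the beta subunit shared by most matrix receptors, was at 421, 462 and 481 FPKM for sham and 377, 479 and 487 for infarct. Infarct library 1 was lowest, the other 5 libraries lay close together, and the groups overlapped. Itgav, the most abundant alpha member, was at 151, 156 and 161 FPKM for sham and 130, 181 and 164 for infarct. Sham values fell inside the wider range of the infarct values. Itgb5, whose subunit pairs with that of Itgav and binds vitronectin, was at 82.1, 68.9 and 128 FPKM for sham and 83.4, 117 and 127 for infarct. Its libraries fell into lower and higher values within both groups.

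The order Itgb1, Itgav, Itgb5, Itga5 held in every one of the 6 libraries on the FPKM scale, and Itga8 was above Itga7 in every library, with both below the other members by group mean. Between them the order changed from library to library, with Itga11 above Itga5 in sham library 3 and infarct library 3. Itga3 ranged from below Itga8, in sham library 1 and infarct library 3, to above Itga11, in sham library 2 and infarct library 1. In sham libraries the means of Itga11, Itga1, Itgb3 and Itga3 were 17.6 ± 12.7, 12.6 ± 5.24, 9.21 ± 2.05 and 8.25 ± 5.52 FPKM, and neighbours in this order differed by less than the larger of their SDs. In infarct libraries Itga11 at 23.3 ± 10.8 FPKM lay above Itga1 at 10.4 ± 3.77 by more than either SD, while Itga1, Itga3 at 7.22 ± 7.15 and Itgb3 at 6.82 ± 2.16 differed by less than the larger SD of each neighbouring pair.

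**Figure D1:**
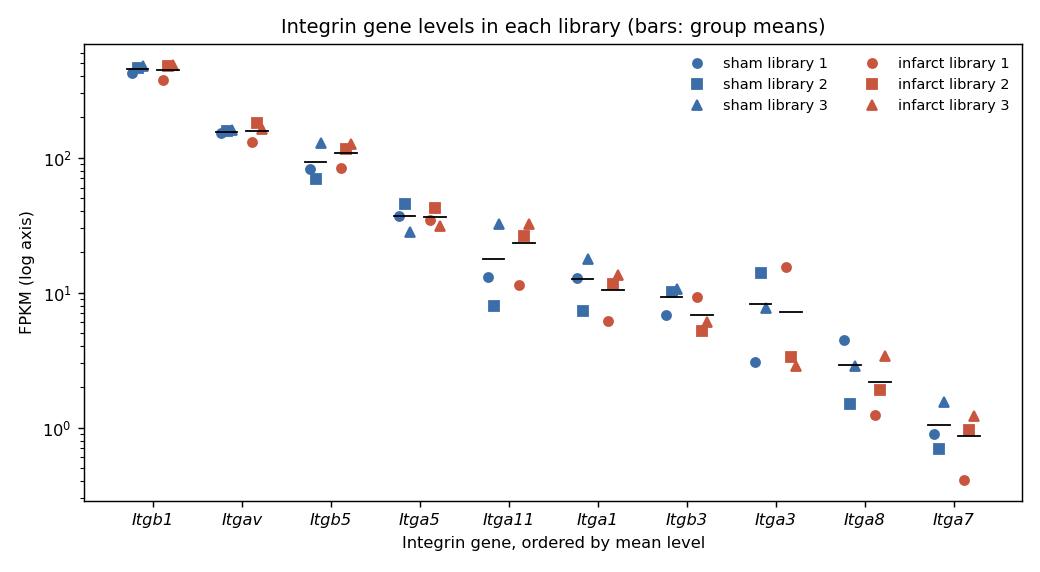
FPKM on a log axis for each of the 10 integrin genes, ordered by mean level, with 1 point per library (blue sham, red infarct) and a bar at each group mean. Itgb1 lies at 377 to 487 FPKM and Itga7 at 0.408 to 1.54, and for every gene the sham and infarct points overlap.

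As shares of the RNA of the 7 alpha members, the mix was led by 1 gene in all libraries. Itgav took 66.5% ± 2.03 of the summed FPKM of the alpha members in sham and 66.3% ± 1.25 for infarct, within 64.2% to 68.0% over all 6. Itga5, whose subunit forms the main fibronectin receptor, took 15.7% ± 4.13 and 15.2% ± 2.46. Itga11 took 7.33% ± 4.86 and 9.52% ± 3.67, and Itga1 took 5.31% ± 2.01 and 4.29% ± 1.15. Itga3 took 3.49% ± 2.36 and 3.39% ± 3.80, Itga8 1.26% ± 0.682 and 0.899% ± 0.407, and Itga7 0.438% ± 0.160 and 0.350% ± 0.141. The alpha v share thus moved little relative to its size, though a share this large cannot rise by a large factor. The smaller shares moved more relative to theirs, from 1.14% to 7.78% for Itga3 and from 11.2% to 19.3% for Itga5. With all alpha integrin genes of the table as the denominator, Itgav took 54.1% ± 3.12 for sham and 55.1% ± 0.264 for infarct.

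Among the 3 beta members, Itgb1 took 81.9% ± 3.95 of the summed FPKM in sham and 79.5% ± 0.861 for infarct. Itgb5 took 16.5% ± 3.98 and 19.2% ± 1.36, and Itgb3 took 1.64% ± 0.265 and 1.27% ± 0.612. The ratio of Itgb1 to the summed alpha members was 1.90, 1.99 and 1.92 for sham and 1.89, 1.79 and 1.96 for infarct. That ratio spanned 1.79 to 1.99 over libraries. Its denominator was mostly Itgav, at 64.2% to 68.0%, so it says little of the minor alpha genes. Itga3, whose FPKM spanned a factor of 5.46, was 1.14% to 7.78% of that denominator.

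**Figure D2:**
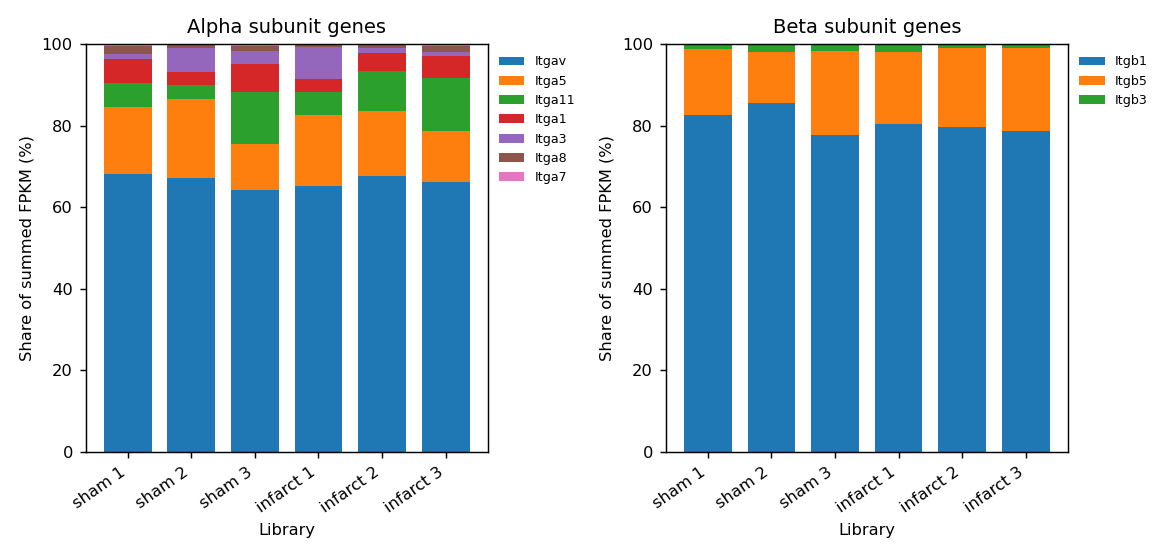
Share of the summed FPKM in percent, per library, for the 7 alpha genes (left) and the 3 beta genes (right). Itgav fills 64.2% to 68.0% of every alpha bar, and the Itga3 segment is widest in sham library 2 (6.05%) and infarct library 1 (7.78%).

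Between infarct and sham libraries no integrin gene passed the test. Of the 10 members, 9 reached the filter of 1 FPKM in at least 3 of the 6 libraries, and limma with Benjamini-Hochberg adjustment over 12720 genes called 0 of them, where it called 0.0236% of all genes, 0.00786% lower and 0.0157% higher. No tested member had an unadjusted limma p under 0.05, against 3.58% of all genes. In none of the 10 members were the groups fully separated, against 7.81% of all tested genes, 4.10% lower and 3.71% higher in the infarct libraries. The authors' deposited table called 0 of the 10 members, against 1.66% of the genes with status OK. Their lowest q was 0.233, for Itgb3, whose unadjusted p in the authors' own test was 0.02645. The median change of the tested members was -0.03 as log2(FPKM + 1) of infarct minus sham, against 0.02 over all genes, with 6 members below 0 and 3 above.

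Itgb1, Itgav and Itga5 had the narrowest intervals of the 9 tested members. The change of Itgb1 was -0.03 with a 95% confidence interval of -0.33 to 0.27, and that of Itgav was 0.01 with an interval of -0.30 to 0.32. Itga5 was at 36.8, 44.9 and 28.1 FPKM for sham and 34.6, 42.2 and 31.2 for infarct, a change of -0.01 with an interval of -0.46 to 0.44. A difference of more than 0.46 in either direction lay outside all 3 intervals, and those of Itgb1 and Itgav were narrower than that of Itga5. Differences inside the interval of a gene were not resolved with 3 libraries a group. The unadjusted p of Itgb1, Itgav and Itga5 was 0.824, 0.955 and 0.960, and their adjusted p in limma was 1.00 after rounding. The same rounded adjusted p applied to the other 6 tested members.

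Itgb3 (chromosome 11, 104608000 to 104670476, plus strand), whose subunit pairs with that of Itgav and is also the platelet beta subunit, had the smallest unadjusted p of the members. It was at 6.87, 10.1 and 10.7 FPKM for sham and 9.27, 5.19 and 6.01 for infarct. Infarct libraries 2 and 3 were lower than every sham library, and infarct library 1 lay among the sham libraries. The change was -0.40 with an SE of 0.23 and an interval of -0.95 to 0.16, with an unadjusted limma p of 0.133 and an adjusted p of 1.00. Endothelial markers were also lower in infarct libraries, and 6 of the 9 tested members, Itgb3 among them, had a change below 0. The summed FPKM of 14 endothelial markers was 97.8, 420 and 273 for sham and 26.6, 4.304 and 6.38 for infarct. All 12 tested markers were lower in every infarct library than in any sham library, where 4.10% of all tested genes were. Among the markers 1, Mmrn2, an endothelial matrix gene, passed the test with an adjusted p of 0.0329 in limma. That call was lost under 9 of 16 alternatives, among them both smaller pseudocounts, no filter and leaving out any single library other than sham library 1, with adjusted p from 0.0166 to 0.430 over all settings. Cdh5, the gene of the endothelial cadherin, was at 46.9 ± 27.2 and 1.77 ± 2.26 FPKM, and Emcn, an endothelial sialomucin gene, at 82.0 ± 53.4 and 2.93 ± 3.85. Among 5 platelet markers, Pf4, a platelet chemokine gene, was at 3.30 ± 0.671 and 4.27 ± 0.343 FPKM, and Itga2b, the gene of the alpha subunit that pairs with that of Itgb3 in platelets, at 1.83 ± 0.858 and 2.48 ± 2.39. The other 3 had lower means in infarct libraries, with Gp1bb at 2.09 ± 0.511 and 1.70 ± 0.559 FPKM, Gp9 at 0.104 ± 0.0967 and 0.0205 ± 0.0354 and Ppbp at 0.0897 ± 0.0799 and 0.0807 ± 0.0233. The summed platelet markers stood at 7.12 to 7.56 FPKM for sham and 7.36 to 10.6 for infarct, where the highest, in infarct library 1, held 5.23 FPKM of Itga2b. The part of endothelial or platelet cells in the level of Itgb3 was not tested.

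Itgb5 was higher on average in infarct libraries by 0.25, with an SE of 0.26 and an interval of -0.35 to 0.86. The ratio of Itgb5 to Itgb3, whose subunits are both partners of that of Itgav, was 11.9, 6.85 and 11.97 for sham and 9.001, 22.5 and 21.1 for infarct. Infarct libraries 2 and 3 held the highest ratios, and infarct library 1 fell among the sham libraries. Itgav was 1.16 to 1.98 times the summed Itgb3 and Itgb5 over the 6 libraries.

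**Figure D3:**
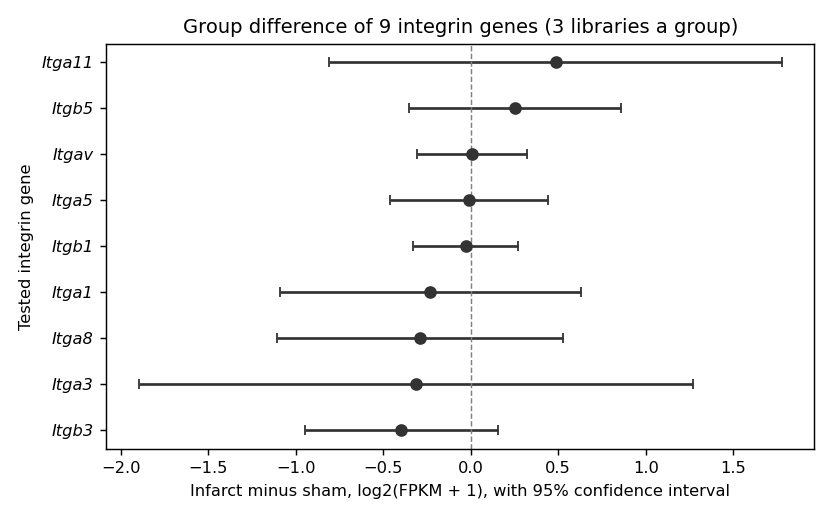
Infarct minus sham difference on the log2(FPKM + 1) scale for the 9 tested integrin genes, with points at the estimate and bars at the 95% confidence interval of limma. All 9 intervals cross 0, from the narrow ones of Itgb1 (-0.33 to 0.27) and Itgav (-0.30 to 0.32) to the wide one of Itga3 (-1.90 to 1.27).

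The collagen and laminin receptor genes among the members were Itga1, Itga11, Itga3 and Itga7. Their SD within groups exceeded the size of their change, as it did for every other member except Itgb3. Itga11 (chromosome 9, 62677826 to 62783982, plus strand), the collagen receptor subunit gene of fibroblasts, was at 12.9, 7.88 and 32.0 FPKM for sham and 11.3, 26.4 and 32.3 for infarct. Sham library 3 lay next to the highest infarct library, and infarct library 1 lay below sham library 1. The change was 0.49 with an SE of 0.55 and an interval of -0.81 to 1.78. Its SD within groups was 0.87 on the log2(FPKM + 1) scale, larger than that of 99.0% of tested genes, whose median was 0.17.

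Itga1 (chromosome 13, 114953096 to 115101964, minus strand), the other collagen receptor subunit gene, was at 12.7, 7.25 and 17.7 FPKM for sham and 6.18, 11.7 and 13.4 for infarct. The lowest values were in sham library 2 and infarct library 1, and the change was -0.23 with an SE of 0.36 and an interval of -1.09 to 0.63. The ratio of Itga11 to Itga1 was 1.02, 1.09 and 1.80 for sham and 1.83, 2.26 and 2.40 for infarct. Its groups did not overlap, by the small gap between 1.80 and 1.83. It was 1 of 3 such ratios among the 45 pairs of members, and it was singled out after its values were seen. The other 2 were Itga11 to Itga7, higher in infarct libraries, and Itga7 to Itgb5, lower in them. Over all pairs of tested genes above 0 in every library, 8.66% had groups that did not overlap, so the count among the members was near the background.

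Itga3 (chromosome 11, 95044474 to 95076801, minus strand), whose subunit binds the laminins of basement membranes, had the largest range of the members. It was at 3.07, 14.1 and 7.62 FPKM for sham and 15.5, 3.35 and 2.83 for infarct. Sham library 2 and infarct library 1 were high, and the highest was 5.46 times the lowest. The change between groups was -0.31 with an SE of 0.67 and an interval of -1.90 to 1.27, and its SD within groups, 1.06, was larger than that of 99.6% of tested genes. Itga7, the laminin receptor subunit gene best known from muscle, was the least abundant member at 0.895, 0.694 and 1.54 FPKM for sham and 0.408, 0.958 and 1.21 for infarct. It reached 1 FPKM in only 1 library of each group and was not tested at the main filter. Without a filter its change was -0.14 with an interval of -0.71 to 0.43.

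Itga8, whose subunit pairs with that of Itgb1 and binds nephronectin, was at 4.42, 1.503 and 2.86 FPKM for sham and 1.24, 1.89 and 3.39 for infarct. Its groups overlapped widely, and the change was -0.29 with an SE of 0.34 and an interval of -1.11 to 0.52. Part of this value is uncertain because 372 exon bases of Itga8 are shared with E030013I19Rik on the opposite strand, and no source used here gives the strand setting of the counting. In the same way Itgav shares 634 exon bases with Gm13684 and Itga7 shares 9 with Mettl7b, both on the opposite strand. Itga1 shares 685 with Gm49395 on its own strand.

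Sham library 2 and infarct library 1 were the 2 lowest or the 2 highest libraries for some alpha genes, but not for Itgav and Itga5. They held the 2 lowest values of Itga1, Itga11, Itga7 and Itga8, and the 2 highest values of Itga3. For Itga11 the gap was small, with sham library 1 at 12.9 FPKM next to infarct library 1 at 11.3. The ratio of Itga11 to Itga3 was accordingly 0.561 in sham library 2 and 0.731 in infarct library 1, against 4.19 and 4.22 in the other sham libraries and 7.86 and 11.4 in the other infarct libraries. These libraries were set side by side after their values were seen, so the pattern is a description. It was common in the table, since the same 2 libraries were the 2 lowest for 20.4% of all tested genes and the 2 highest for 19.6%. Of the 9 tested members 3 were among the former and 1, Itga3, among the latter, so the members were near the background.

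Markers of cycling cells, and some of fibroblasts, differed in the same libraries. The summed FPKM of 7 cell cycle genes was 293 in sham library 2 and 352 in infarct library 1, against 133 to 192 in the other 4. Cdk1, a mitotic kinase gene, was at 77.3 and 87.2 FPKM in those 2 libraries and at 33.1 to 46.3 in the others. The summed FPKM of 10 fibroblast genes was 2205 and 2506 in sham library 2 and infarct library 1, against 3058 to 3776 in the others. Collagen genes make up most of that sum, and of the 9 tested fibroblast genes 4 (Col3a1, Tcf21, Ddr2 and Postn) had these as their 2 lowest libraries. The part of these differences in the integrin levels was not tested. Of 8 macrophage markers 1 was tested, Lyz2, a lysozyme gene, at 18.7 ± 10.4 and 21.5 ± 10.2 FPKM, and Cd68 was at 0.666 ± 0.107 and 0.540 ± 0.0516. Csf1r was at 0.503 ± 0.115 and 0.648 ± 0.0430 FPKM. Adgre1 and C1qa were at 0 in every library, and Ptprc, Cd163 and C1qb were at most 0.0528 FPKM. Of 10 cardiomyocyte markers 1 was tested, Tnnt2, the troponin T gene, at 30.4 ± 19.9 and 16.6 ± 3.32 FPKM, and Tnni3, the troponin I gene, was at 0.787 ± 0.218 and 0.520 ± 0.0983. Myh6, Myl7 and Nppa were at 0 in every library, and Myh7, Actc1, Actn2, Myl2 and Ryr2 were at most 0.319 FPKM. Of 4 Schwann cell markers S100b was at 5.27 ± 1.70 and 3.54 ± 0.819 FPKM. Of 10 pericyte and smooth muscle markers none passed, and their summed FPKM was 442 to 615 for sham and 437 to 648 for infarct. Cnn1, the calponin gene, had the smallest unadjusted p among them, at 5.31 ± 2.99 and 10.5 ± 4.65 FPKM.

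**Figure D4:**
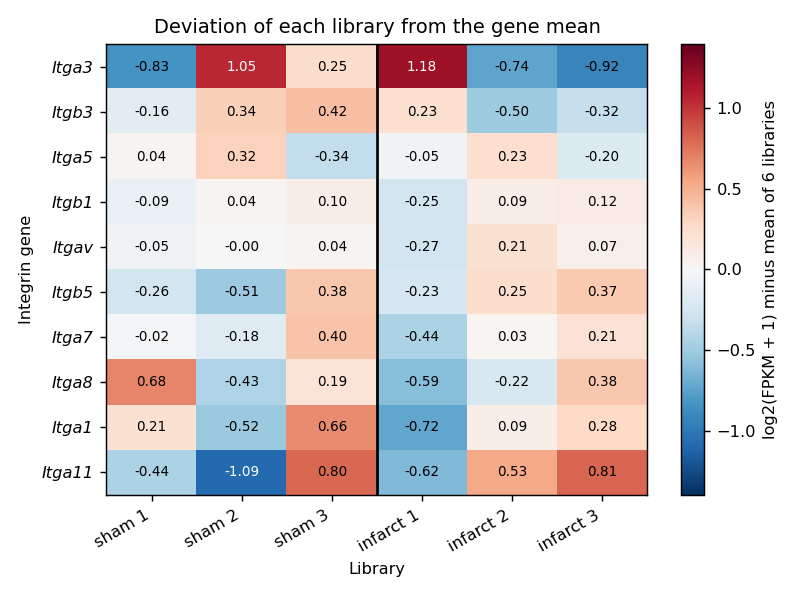
Deviation of log2(FPKM + 1) in each library from the mean of the 6 libraries, for the 10 integrin genes (rows) and the libraries (columns, sham left of the line). Itga3 is high in sham library 2 (1.05) and infarct library 1 (1.18), where Itga11 is low (-1.09 and -0.62), while Itgb1 stays between -0.25 and 0.12.

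The genes most like Itga3 over the 6 libraries included another integrin. Likeness was the root mean square difference of log2(FPKM + 1) after centring each gene, among 12719 other tested genes with a median of 0.894. The 5 nearest were the processed pseudogene Gm9800 (0.318), the glycosyltransferase gene Gcnt1 (0.337), Itga2b (0.416), the GTPase regulator gene Chn2 (0.435) and Fam60a (0.435). Itga2b was at 1.01, 2.72 and 1.75 FPKM for sham and 5.23, 0.930 and 1.28 for infarct. Infarct library 1 and sham library 2 were thus its highest, as for Itga3 and for 19.6% of all tested genes. Gcnt1 was at 4.03, 10.8 and 5.23 FPKM for sham and 18.6, 2.61 and 3.84 for infarct.

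The other 16 integrin subunit genes were mostly low. Of them 6 were tested and 0 were called, with a median change of -0.17, and 1, Itga2, had groups that did not overlap, where 7.81% of all tested genes did not. Itga6, a laminin receptor subunit gene, was the most abundant at 19.1, 27.5 and 24.0 FPKM for sham and 15.8, 20.1 and 16.0 for infarct. Infarct library 2 lay above sham library 1, and the change was -0.42 with an SE of 0.16, an unadjusted limma p of 0.0347 and an adjusted p of 1.00. Itga6 thus exceeded Itga3 in all 6 libraries, with Itga3 at 0.160 to 0.978 of its level. Itga9 was at 12.7 ± 3.94 and 15.5 ± 6.72 FPKM, and Itga4, whose subunit binds fibronectin and VCAM1, at 13.9 ± 6.15 and 11.7 ± 4.68. Itga2, a collagen receptor subunit gene, was at 1.61 ± 0.495 and 1.00 ± 0.304 FPKM. The leukocyte genes Itgal, Itgam, Itgax and Itgad did not exceed 0.133 FPKM in any library. Itgb2, the gene of their shared beta subunit, was at 1.24 FPKM in infarct library 1 and at 0.0841 to 0.211 in the other 5.

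None of the genes of the integrin adhesion complex passed the test. Of 34 genes 32 were tested, and the other 2 were Fermt1, listed at 0 in every library, and Fermt3, at most 0.246 FPKM. Of the tested genes 16 had a change below 0 and 16 above, with a median change of -0.01, and 3 had groups that did not overlap, where 7.81% of all tested genes did not, and all 3 were lower in infarct libraries. Parvb, which encodes a parvin that binds the integrin-linked kinase, was at 6.25, 10.7 and 7.05 FPKM for sham and 3.58, 5.39 and 4.50 for infarct. Every infarct library was below every sham library, and the change of -0.70 (SE 0.21) had an adjusted limma p of 0.988. Arhgef7, a Rac exchange factor gene, was at 18.6 ± 2.33 and 15.04 ± 0.511 FPKM, and Itgb1bp1, whose product binds the beta 1 tail, at 14.4 ± 1.64 and 12.6 ± 0.102. The actin linker genes Actn1 and Flna were at 307 ± 27.4 and 283 ± 29.6 FPKM for sham and 300.1 ± 38.4 and 285 ± 19.9 for infarct.

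Ligand genes did not pass either. Of 9 genes for ligands of collagen receptors all were tested, 8 had a change above 0 on the log2(FPKM + 1) scale and 7 a higher mean FPKM in infarct libraries, and the median change was 0.15. Col1a1 had a change of 0.30 with an SE of 0.17, Col1a2 was at 697 ± 137 and 849 ± 119 FPKM, and Col4a2, a basement membrane collagen gene, at 288 ± 92.5 and 343 ± 98.8. Col3a1 was lowest in sham library 2 at 440 FPKM and infarct library 1 at 552, the libraries with the lowest Itga1 and Itga11. Of 11 laminin genes 7 were tested, with a median change of 0.13. Lamb1 was at 109 ± 9.08 and 128 ± 16.0 FPKM, Lamc1 at 91.5 ± 5.79 and 99.985 ± 12.6 and Lama5 at 6.64 ± 2.88 and 3.86 ± 1.83.

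Of 17 genes for RGD ligands and partners 14 were tested, with a median change of 0.09 and 1 with groups that did not overlap, a share near the 7.81% of all tested genes. Fn1, the fibronectin gene, is listed at 0 with the status for too many fragments to estimate, and this is no measurement. Nid1, the gene of a basement membrane linker, was at 208 ± 17.5 and 242 ± 20.5 FPKM, higher in every infarct library than in any sham library, and its change of 0.22 (SE 0.10) had an adjusted limma p of 1.00. Thbs1, the thrombospondin 1 gene, was at 733 ± 111 and 850 ± 226 FPKM, and Ctgf, the gene of a matricellular growth factor partner, at 785 ± 132 and 761 ± 263. Spp1, the osteopontin gene, was at 42.2, 147 and 103 FPKM for sham and 552, 66.4 and 199 for infarct, highest in infarct library 1. Tgfb1 was at 22.3 ± 3.81 and 18.4 ± 1.14 FPKM. Among 12 genes of other proteins that associate with integrins, all tested and none called, the median change was -0.01. Lgals1, the galectin 1 gene, was at 1904 ± 161 and 1957 ± 103 FPKM, Bsg at 490.4 ± 122 and 492 ± 80.4, Cav1, the caveolin gene, at 403 ± 83.1 and 309 ± 32.3, the tetraspanin gene Cd9 at 126 ± 9.68 and 104 ± 18.0, and Sdc4, a syndecan gene, at 124 ± 15.5 and 135 ± 10.2.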

How the data were processed

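RNA of 6 libraries was sequenced. Library preparation followed rRNA depletion and kept strand, and fragments were read from both ends, per the labels' protocols. Cuffdiff, StringTie, Cufflinks, SAMtools, HISAT2, Trimmomatic 0.36 and build GRCm38 are named in the submitters' processing notes, with no roles. The authors deposited FPKM values with 1 column per library, and beside them a p-value and q-value per gene, per the file headers. Sham columns carry the sample numbers. Infarct columns are numbered differently from the labels, so they were mapped to the group alone, and infarct library numbers are those of the columns.

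The depth was estimated from the deposited FPKM. In genes with 1 transcript of 2 to 12 kb, 96.9% to 98.1% of values of 2 to 5 fragments lay within 0.1 of a whole number, where evenly spread values would give 20%, with an effective length shortened by 250 nt. The 14 genes with too many fragments to estimate were left out, and entries of 1 symbol were summed. The loci of Itga7, Itga8 and Itgb5 in the table differ from the genes in GENCODE M21. Gene lists used current symbols, and Ccn1 and Ccn2 were matched to Cyr61 and Ctgf.

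The group difference of log2(FPKM + 1) was fitted by limma 3.58.1 (R 4.3.3), two-sided with an intensity trend. Genes had to reach 1 FPKM in 3 libraries or more, and the threshold was 0.05 after Benjamini-Hochberg adjustment. The log2(FPKM + 1) scale understates changes of low genes. The test was also run on simulated data with independent normal values. Those lack the patterns that libraries share here, so that run cannot tell how the test behaves on these data. Shares, ratios and likeness have no test. Other steps used Python 3.11.15, pandas 2.3.3, numpy 2.4.6, matplotlib 3.10.9 and scipy 1.17.1. Named genes were the members, and from each pathway list up to 3 genes with the smallest p and the 2 most abundant, from each marker list 1 and 2, and the 5 genes nearest to the most variable member. Some genes this rule names are not reported here. The members and lists were chosen with earlier results of these data known. Alternatives were other pseudocounts, filters, scalings, sample weights, no trend and leaving out libraries.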

Additional observations from a re-analysis of the deposited data

How the results depend on the processing

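The count of 0 integrin genes called was the same under every alternative run, and the lowest adjusted p of any tested member over all settings was 0.553, for Itgb5. Over all genes the count of 3 calls was 2 with pseudocounts of 0.1 and 0.01 FPKM, 1 without a filter and 1 to 14 when single libraries were left out, with 14 when sham library 1 was left out and 1 when sham library 2, infarct library 1 or infarct library 2 was. Without sham library 2 and infarct library 1 together, chosen after seeing the data, it was 0. With all alpha integrin genes as denominator the Itgav share was 54.1% in sham and 55.1% in infarct libraries, because the denominator holds more genes.

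Of 143 values of the 9 tested members under alternatives, 123 kept their direction and 20 reversed, and every reversed value was within the interval of the main estimate. Itgav turned to -0.0081 with median scaling, -0.0031 with upper quartile scaling and -0.031 with quantile normalization. Itga5 turned to 0.00026 with quantile normalization, and Itgb1 to 0.12 with sample weights. Without sham library 2 and infarct library 1, Itga5 turned to 0.17 and Itgb1 to 0.10. The cause was not tested. Leaving out single libraries gave -0.55 to 0.072 for Itga1, -0.98 to 0.14 for Itga3, -0.18 to 0.15 for Itga5, -0.10 to 0.14 for Itgav and -0.095 to 0.090 for Itgb1. The direction did not reverse for Itga11 (0.06 to 1.01), Itga8 (-0.58 to -0.02), Itgb3 (-0.61 to -0.25) and Itgb5 (0.06 to 0.51). No paired analysis was possible because the infarct columns carry no sample numbers of the labels. The labels also state no pairing of sham with infarct samples, and the groups came from mice with different surgery.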
